A study of Mus musculus with 6 samples.

Results

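The 31 genes described here mainly encode the mitochondrial steps that turn long-chain fatty acids into acetyl-CoA and ketone bodies. Some lie beside these steps: Acadsb and Acad8 act on branched chains from amino acids. Pdk4 acts on pyruvate dehydrogenase, and Slc22a5 imports carnitine at the cell surface. All 31 were chosen by name, and 29 of them have a row among the 41096 rows with a gene name in the deposited liver count table. Acad10 and Acad12 have none. Cpt1b had too few counts to be tested, which leaves 28 genes tested.

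Polyadenylated RNA was sequenced from mouse liver in 6 libraries. Of these, 3 came from livers exposed to the plasticizer DEHP (a phthalate ester that softens plastics) and 3 from control livers. The exposed columns of the table carry the word High. The labels state no dose, route, duration, strain, age or sex. Nor do they state that each library is a separate animal, so a p-value here sets the difference against the spread of these libraries, which may be technical. Groups were read from the sample titles, because the design text of the series is about another assay, on HepG2 cells.

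A fatty acid is first joined to coenzyme A, then handed to carnitine to cross the inner mitochondrial membrane, and rejoined to coenzyme A inside. Each turn of beta-oxidation dehydrogenates, hydrates, dehydrogenates again and cleaves the chain, and the electron transfer flavoprotein passes the first pair of electrons to the respiratory chain. In fasting liver, surplus acetyl-CoA is made into ketone bodies for other organs, and many genes of these steps are targets of the nuclear receptor PPARalpha.

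Total counts were 10410098 to 12405044 in the DEHP libraries and 12001969 to 14229803 in the control libraries. Values are CPM, counts scaled to the TMM-adjusted total of the tested genes of each library, and fold changes are log2 of DEHP over control with standard errors (SE), from edgeR's quasi-likelihood test adjusted over all 12468 genes tested. Hepatocyte markers were abundant in every library, with 8 of 8 detected and summing to 99656 to 132178 CPM in DEHP and 114506 to 156757 CPM in control livers. In bulk tissue, fewer cells of a type and less RNA per cell cannot be told apart. The control libraries did not form a uniform group. Interferon-stimulated genes, 18 of 20 with a row, summed to 388, 325 and 370 CPM in DEHP replicates 1 to 3, and to 4069, 3182 and 363 CPM in control replicates 1 to 3. Of the 17 tested, 3 lay above every DEHP library in control replicate 3 as well, Stat2, Mx1 and Mx2. Stat2 had 93.8 CPM there, against 47.6 to 75.2 CPM in DEHP livers. Acute phase genes, 13 of 15 with a row, summed to 18772 to 23648 CPM in DEHP livers and to 49233, 44241 and 24144 CPM in control replicates 1 to 3. Hp and Hpx made up much of this sum. Measured from the DEHP mean on the log2 scale, the median of the 13 genes was 1.12, 1.17 and 0.05 in control replicates 1 to 3. The log2 fold change was negative for 11 of the 13 and positive for Crp (0.14) and Saa4 (0.06). The 10 Kupffer cell markers, none of them at 0 throughout, summed to 266 to 389 CPM in DEHP livers and to 861, 786 and 251 CPM in control replicates 1 to 3. All 10 had a negative log2 fold change, but those of Vsig4 (-0.11 ± 0.26) and Adgre1 (-0.06 ± 0.40) were smaller than their SE. Control replicates 1 and 2 thus stood apart from the other 4 libraries, and the part these states have in the values below was not tested.

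Promoter sequences of 4 members are given as examples. Acadsb and Echs1, not printed, had smaller unadjusted p-values (edgeR) than Cpt1a and Acadm. Hadhb shares its upstream region with Hadha, Pdk4 had the largest fold change of the members, and Cpt1a and Acadm lead the shuttle and the medium-chain cycle. Each runs from 250 bases before to 50 after the RefSeq start, on build GRCm38.p6, 5′ to 3′ on the strand of the gene. Capitals mark GGGCGG, the GC box, in Hadhb, and AGGTCA, the core motif of PPARalpha and related nuclear receptors, in the other 3, on either strand. Pdk4 holds no such core in this window and is printed in lower case throughout. Cpt1a and Acadm are among the 4 members whose promoters hold this core, so the printed set is not typical of the members.
Hadhb, chr5:30155003-30155302, plus strand: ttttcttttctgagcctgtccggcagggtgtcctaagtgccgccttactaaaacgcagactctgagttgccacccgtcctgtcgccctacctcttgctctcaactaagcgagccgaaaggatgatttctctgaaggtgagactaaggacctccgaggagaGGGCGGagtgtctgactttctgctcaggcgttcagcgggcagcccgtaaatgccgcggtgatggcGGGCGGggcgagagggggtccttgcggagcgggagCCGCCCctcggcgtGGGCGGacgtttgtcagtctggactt
Pdk4, chr6:5496229-5496528, minus strand: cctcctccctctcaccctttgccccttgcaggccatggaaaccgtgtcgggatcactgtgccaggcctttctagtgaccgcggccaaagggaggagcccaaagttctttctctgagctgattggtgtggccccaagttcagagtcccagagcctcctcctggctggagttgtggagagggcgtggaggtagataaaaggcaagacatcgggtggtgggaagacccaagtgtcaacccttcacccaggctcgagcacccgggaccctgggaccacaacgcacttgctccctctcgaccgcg
Cpt1a, chr19:3323051-3323350, plus strand: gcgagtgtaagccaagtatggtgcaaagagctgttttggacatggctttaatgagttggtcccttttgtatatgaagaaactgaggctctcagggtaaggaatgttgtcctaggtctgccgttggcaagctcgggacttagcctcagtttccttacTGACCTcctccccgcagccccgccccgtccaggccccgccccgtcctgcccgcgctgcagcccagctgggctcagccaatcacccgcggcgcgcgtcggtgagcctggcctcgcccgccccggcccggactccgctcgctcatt
Acadm, chr3:153944594-153944893, minus strand: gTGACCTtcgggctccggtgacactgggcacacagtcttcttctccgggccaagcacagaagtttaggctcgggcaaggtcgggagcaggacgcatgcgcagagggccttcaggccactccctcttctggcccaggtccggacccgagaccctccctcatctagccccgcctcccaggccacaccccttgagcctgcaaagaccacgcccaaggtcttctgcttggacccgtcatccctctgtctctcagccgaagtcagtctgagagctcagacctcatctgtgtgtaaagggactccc

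RefSeq promoters were found for 25 of the 31 genes, 27 sequences in all. The full PPAR element, AGGTCA followed by N and AGGTCA again, was in 0 of these 27, and in 0.0396% of 32851 mouse promoters of the same length. With the looser core AGGNCA in both places the count was again 0 of 27, against 0.381% of all promoters. The core AGGTCA alone was in 4 of 27, those of Acadm, Acadvl, Cpt1a and Echs1, against 16.3% of all promoters. The GC box GGGCGG was in 18 of 27, against 35.7%. The looser element includes the strict one, and the core is part of the strict one. These are letter matches on both strands in a short window and say nothing of binding.

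None of the 28 genes passed an adjusted p of 0.05 (edgeR), where 9 of all 12468 genes did, 0.0722%. At an unadjusted p of 0.05, 6 of 28 passed as higher in DEHP livers, 21.4% against 6.11% of all genes, and 0 as lower, against 6.97%. DESeq2 called 2 members, Hadhb and Pdk4, where it called 2.09% of all genes. With limma-voom 0 members were called, where 0.016% of all genes were. Each of these tools had 8 members at an unadjusted p of 0.05, against 13.4% of all genes for DESeq2 and 12.8% for limma-voom. The log2 fold change was positive for 25 of 28, against 47.1% of all genes. Its median was 0.24 over the members and -0.03 over all genes. All 3 DEHP libraries lay above all 3 controls for 6 of 28, Cpt1a, Acadl, Acadsb, Hadhb, Acaa2 and Etfa, against 9.17% of all genes. The opposite held for 0 of 28, against 8.57%.

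**Figure D1:**
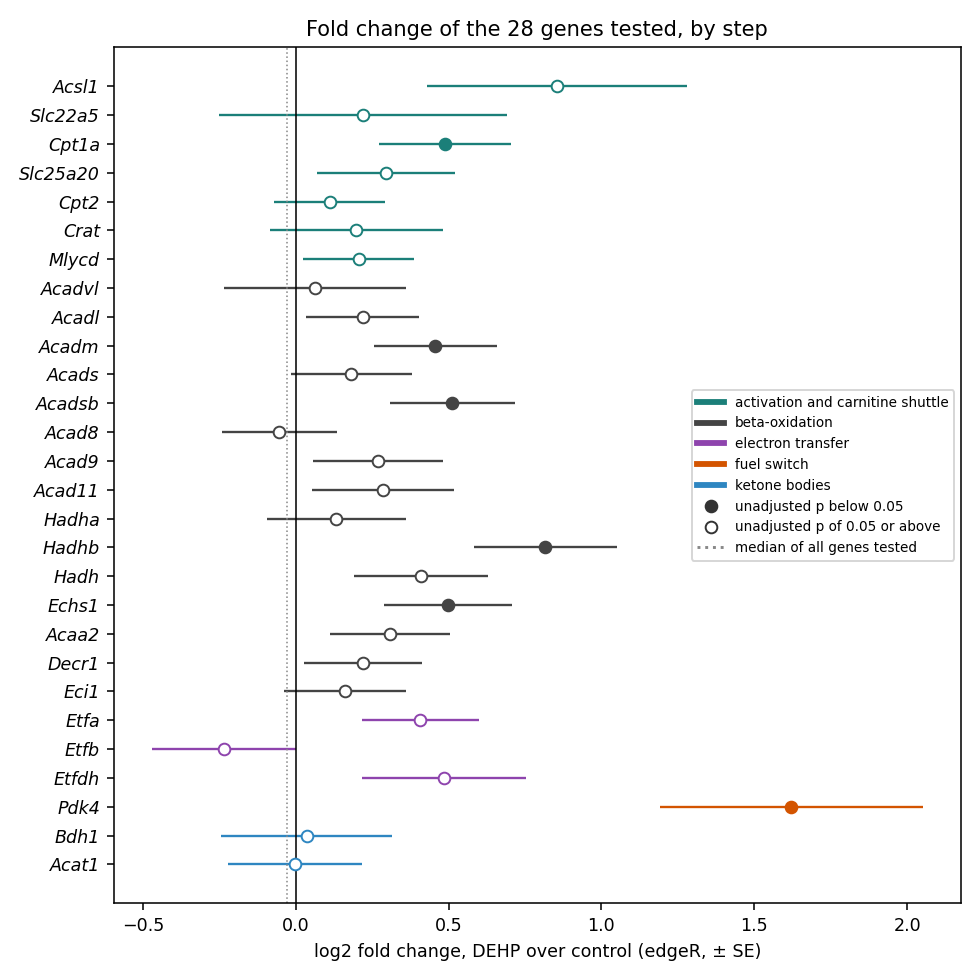
Log2 fold change of DEHP over control livers for the 28 genes tested, by step from top to bottom, with bars of 1 SE from edgeR. Filled points have an unadjusted p below 0.05, and 25 of 28 points lie right of 0, with Pdk4 at 1.62 farthest.

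The number of members past an unadjusted p of 0.05 depended on single libraries. It came to 8 when DEHP replicate 1 was dropped, where 14.3% of all genes passed, to 5 when control replicate 2 was (10.6%), and to 12 when control replicate 3 was (16.0%). Only 2 of 28 members, Hadhb and Pdk4, were left when DEHP replicate 2, DEHP replicate 3 or control replicate 1 was dropped. That is a share of 7.14%, below the 7.41%, 9.53% and 7.42% of all genes that passed in these 3 fits. Without control replicate 3, 4 members passed the adjusted threshold, Acsl1, Hadhb, Etfdh and Pdk4, where 3.10% of 12890 genes did. The median of the members was 0.15 when control replicate 1 was dropped and 0.43 when control replicate 3 was. Dropping both interferon-high controls, replicates 1 and 2, was tried once the values were known. This leaves 1 control library, which has no spread of its own and is assumed to vary like the DEHP libraries, so losing calls says little (edgeR; 0 members and 0 of 13437 genes passed the adjusted threshold, and 0 members and 4.78% of genes the unadjusted one). As values, the median of the members was then 0.11, and 17 of 28 were positive.

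Read library by library, the members were graded within the control group. Their summed level was 6521, 7238 and 7533 CPM in DEHP replicates 1 to 3, and 4493, 5502 and 6756 CPM in control replicates 1 to 3. Control replicate 1 was the lowest of all 6 libraries for 22 of 28 genes, and lay below all 3 DEHP libraries for 25. Control replicate 2 lay below all 3 DEHP libraries for 17 and within their range for 11. Control replicate 3 lay below them for 7, within for 14, and above for 7, Acadvl, Acat1, Cpt2, Crat, Hadha, Slc22a5 and Slc25a20. Measured from the DEHP mean on the log2 scale, the median of the members was -0.66, -0.29 and -0.08 in control replicates 1 to 3, against 0.03, 0.03 and 0.03 for all genes. Control replicate 3 was the control with the highest summed member level, and its interferon-stimulated genes were, as a sum, at the DEHP level. Control replicates 1 and 2 had the high sums of these genes. Markers of pericentral hepatocytes, 6 of 6 detected, summed to 22110 to 24386 CPM in DEHP livers and to 8416, 12301 and 15622 CPM in control replicates 1 to 3. Cyp2e1 made up most of this sum, at 18740 to 20992 CPM in DEHP livers and 6245, 9720 and 12587 CPM in control replicates 1 to 3. By log2 fold change, 5 of the 6 were positive, among them Cyp1a2 with overlapping groups (0.21 ± 0.30), and Lgr5 was negative (-0.24 ± 0.47). Periportal markers, 6 of 6 detected, summed to 6561 to 8297 CPM in DEHP livers and to 3659, 5480 and 7550 CPM in control replicates 1 to 3. Both sums were graded over the controls in the same order as the members, and their part in the values was not tested.

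**Figure D2:**
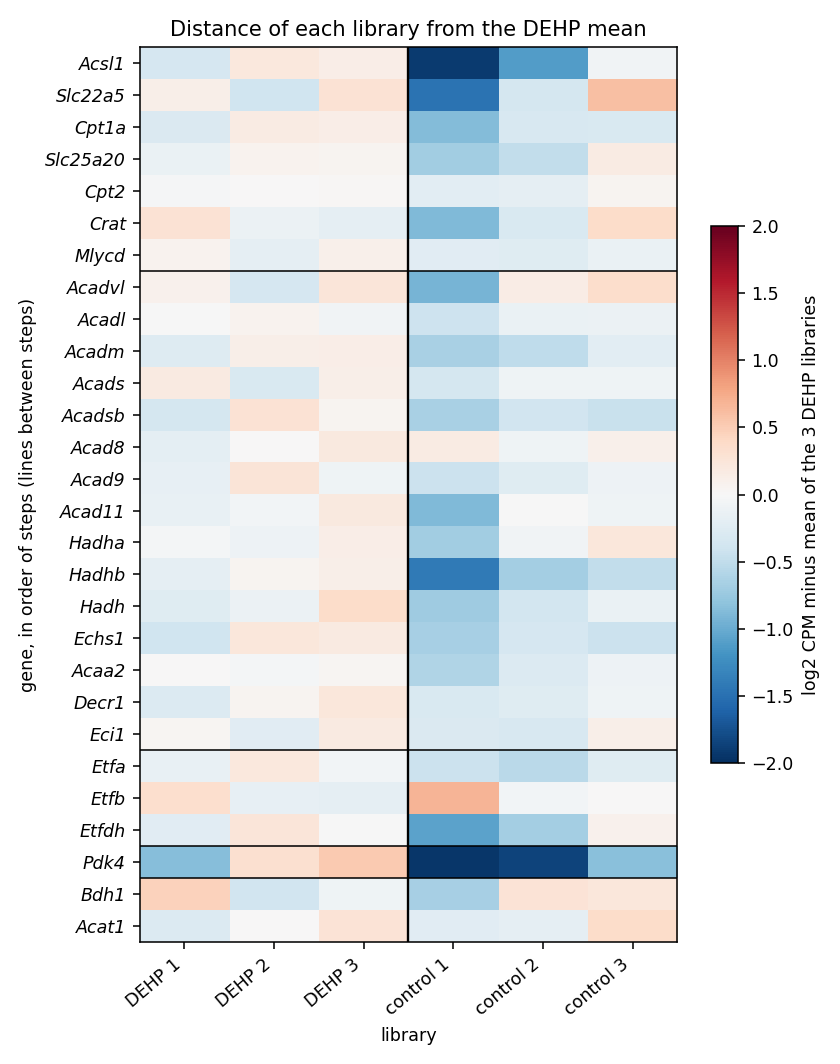
Log2 CPM of each of the 28 genes in each library minus the mean of the 3 DEHP libraries, with genes in rows by step and libraries in columns, DEHP on the left. Control 1 is blue for most genes, control 2 less so, and control 3 is mixed, with medians of -0.66, -0.29 and -0.08.

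On a per-length scale, CPM per kilobase of the gene length in the table, the members ranged widely in level. Acaa2, the mitochondrial thiolase that cleaves off acetyl-CoA, stood highest, at 858 ± 20.6 CPM per kilobase in DEHP and 692 ± 120 in control livers (SD, n = 3). Etfa (205 ± 26.8 in DEHP, 155 ± 16.7 in control livers) and Eci1 (184 ± 25.1 and 164 ± 28.4) followed, and these neighbours do not differ beyond their spread. At the low end, Acad9, Pdk4 and Slc22a5 lay at 4.58, 3.02 and 1.91 CPM per kilobase in DEHP livers, and at 3.81, 0.988 and 1.65 in control livers. The order of levels was nearly kept between groups. Acsl1 shifted most, to place 6 of 29 in DEHP livers, against place 11 in control livers.

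**Figure D3:**
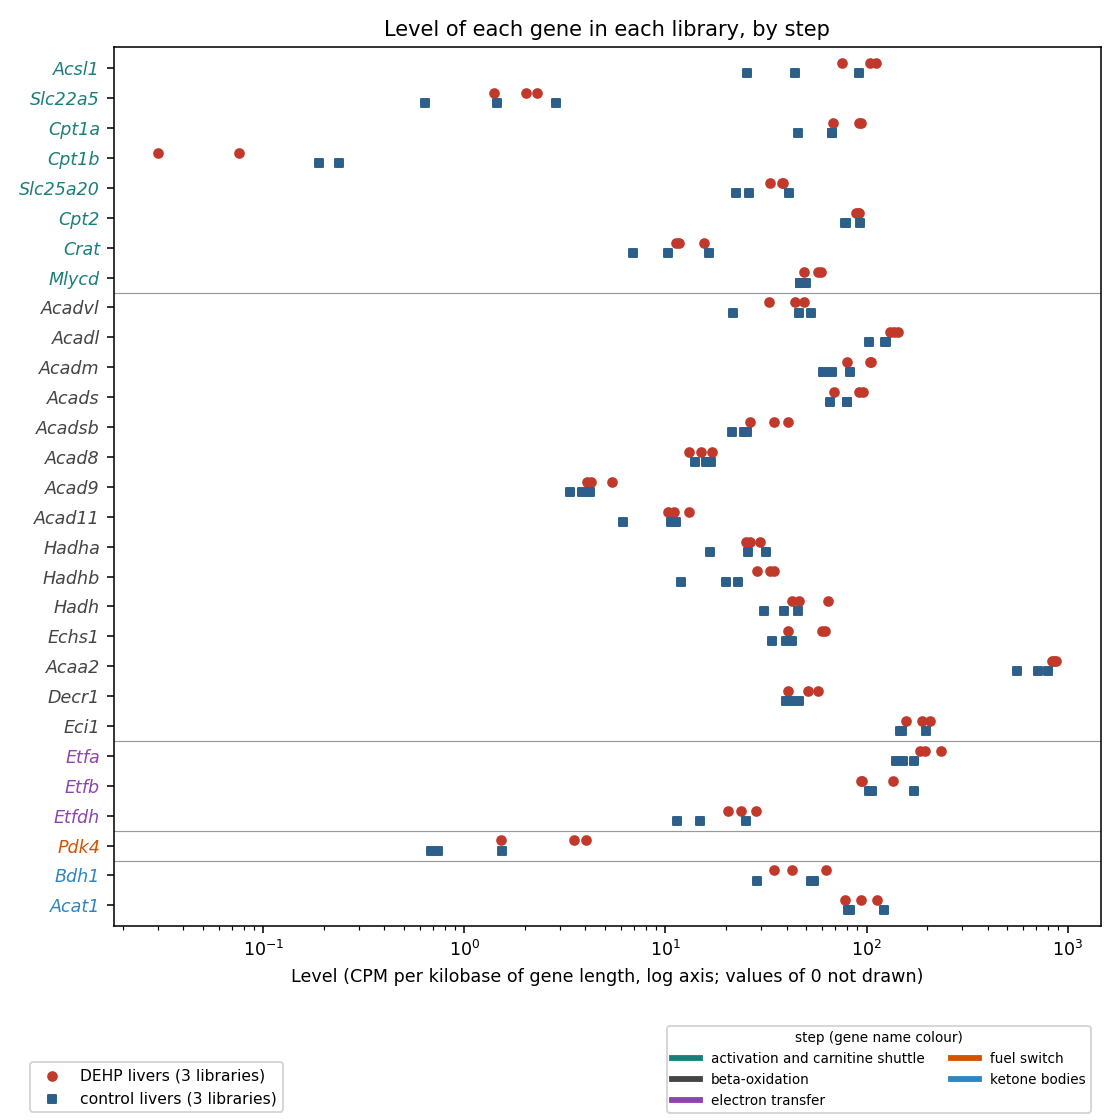
Level of the 29 genes with a row in each library, in CPM per kilobase of gene length on a log axis, with circles for DEHP and squares for control libraries, by step. Acaa2 is the highest and Cpt1b the lowest, and most genes show overlapping groups.

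Activation and the carnitine shuttle had 8 members with a row, 7 of them tested, all with a positive log2 fold change and a median of 0.22. With control replicate 1 dropped the median was 0.13, and Slc22a5 (-0.17) and Crat (-0.06) were negative. With control replicate 3 as the sole control the median was -0.04, and Slc22a5, Slc25a20, Cpt2 and Crat were negative. Cpt1a passed the unadjusted threshold, as 6.11% of all genes did in that direction. Acsl1, the main long-chain acyl-CoA synthetase of liver, had 716, 1048 and 987 CPM in DEHP livers, against 241, 418 and 862 CPM in control livers. Control replicate 3 lay inside the DEHP range, while the other controls lay far below it. The log2 fold change was 0.85 ± 0.43 (SE, edgeR adjusted p = 0.437). It was 1.502 ± 0.27 with control replicate 3 dropped (edgeR adjusted p = 0.00426) and 0.52 with control replicate 1 dropped (edgeR adjusted p = 0.717). Cpt1a, the carnitine palmitoyltransferase of the outer membrane and the main control point of the pathway, had 293, 402 and 394 CPM in DEHP livers, against 197, 289 and 291 CPM in control livers. The groups do not overlap, though DEHP replicate 1 and control replicate 3 nearly meet. Its log2 fold change was 0.49 ± 0.22 (SE, edgeR unadjusted p = 0.0396, adjusted p = 0.366).

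The remaining shuttle genes did not pass the unadjusted threshold. Cpt2, which rejoins the chain to coenzyme A in the matrix, had 212, 216 and 219 CPM in DEHP livers, against 187, 190 and 223 CPM in control livers (log2 fold change 0.11 ± 0.18). Slc25a20, the carnitine and acylcarnitine carrier of the inner membrane, had 149, 173 and 170 CPM in DEHP livers, against 101, 117 and 184 CPM in control livers (0.30 ± 0.23). In both genes control replicate 3 was the highest library of all. Crat, which moves short acyl groups to carnitine, had 0.20 ± 0.28, and Mlycd, which breaks down the Cpt1 inhibitor malonyl-CoA, had 0.21 ± 0.18. Slc22a5, the carnitine importer of the cell surface, had 4.36 to 7.14 CPM in DEHP livers and 1.98 to 8.86 CPM in control livers (0.22 ± 0.47). The row of Crat lies inside the much longer row of Golga2 on the other strand, and no source used here states whether counting used strand, so its value is uncertain.

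Cpt1b, the muscle form of the outer-membrane enzyme, had 1, 0 and 3 counts in DEHP livers, against 9, 0 and 9 counts in control livers, too few for a test. Its row lies wholly inside the row of Chkb on the same strand, which held 686 to 893 counts in DEHP and 820 to 1503 counts in control livers and is described in the table as Cpt1b. Reads of these genes may have been split or set aside, so the level of Cpt1b is uncertain. Of 6 skeletal muscle markers, Mb and Myh4 were at 0 in all libraries, and the 6 summed to 0.510 to 1.92 CPM in DEHP and 0.780 to 3.01 CPM in control livers.

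Beta-oxidation had 15 tested members, 14 of them positive, with a median log2 fold change of 0.27. At an unadjusted p of 0.05, 4 passed as higher, Hadhb, Acadsb, Echs1 and Acadm, and 0 as lower, against 6.11% and 6.97% of all genes. Hadhb, the thiolase subunit of the trifunctional protein, had 187, 219 and 230 CPM in DEHP livers, against 78.7, 132 and 151 CPM in control livers. The lowest DEHP library lay above the highest control. Its log2 fold change was 0.82 ± 0.23 (SE, edgeR unadjusted p = 0.00359, adjusted p = 0.200). It passed with DESeq2 (adjusted p = 0.0424), with edgeR and no low-count filter (0.00806), and with edgeR without control replicate 3 (0.0309). It did not pass in the other settings tried. Its log2 fold change was 0.59 with control replicate 1 dropped (edgeR adjusted p = 0.555) and 0.50 with control replicate 3 as the sole control. In the fit with no filter, the SE of Cpt2, Acadvl and Hadhb was 0.215, 0.216 and 0.217. With the filter it was 0.18, 0.30 and 0.23. The fit with no filter thus hardly used the spread of each gene, so a pass in it says little.

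Hadha, the other subunit of the trifunctional protein, had 229, 220 and 259 CPM in DEHP livers, against 146, 225 and 275 CPM in control livers. Control replicate 3 was the highest of the 6 libraries. The log2 fold change was 0.13 ± 0.23 (SE, edgeR adjusted p = 0.848). The subunit genes lie head to head on chromosome 5. In the table's C57BL/6NJ coordinates Hadha ends at 29857005 on the minus strand, Hadhb starts at 29857091 on the plus strand, and 85 bases separate them. In RefSeq on GRCm38.p6 the starts lie farther apart, with 272 bases between them, and the 300-base promoter windows share 228 bases. Of the 4 GC boxes in the Hadhb promoter printed above, 1 lies wholly within the shared bases.

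The ratio of Hadhb to Hadha within each library removes what moves both genes alike. On the log2 scale it was -0.29, -0.01 and -0.17 in DEHP livers, against -0.89, -0.77 and -0.87 in control livers. The controls lay close together, control replicate 3 included, and below every DEHP library. The mean was -0.16 ± 0.14 in DEHP and -0.84 ± 0.06 in control livers (SD, n = 3), a difference of 0.68 (two-sided exact permutation p = 0.1, the smallest that 3 against 3 allows). This ratio was picked after the values were seen. A processed pseudogene and an unnamed locus described as Hadhb held 0 to 10 and 25 to 106 counts a library, and reads shared with them could move the Hadhb value. Ratios of the other pairs computed, Etfb to Etfa, Cpt2 to Cpt1a and Acadvl to Acadl, overlapped between groups or differed with p = 0.2 or more in the same exact permutation test.

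**Figure D4:**
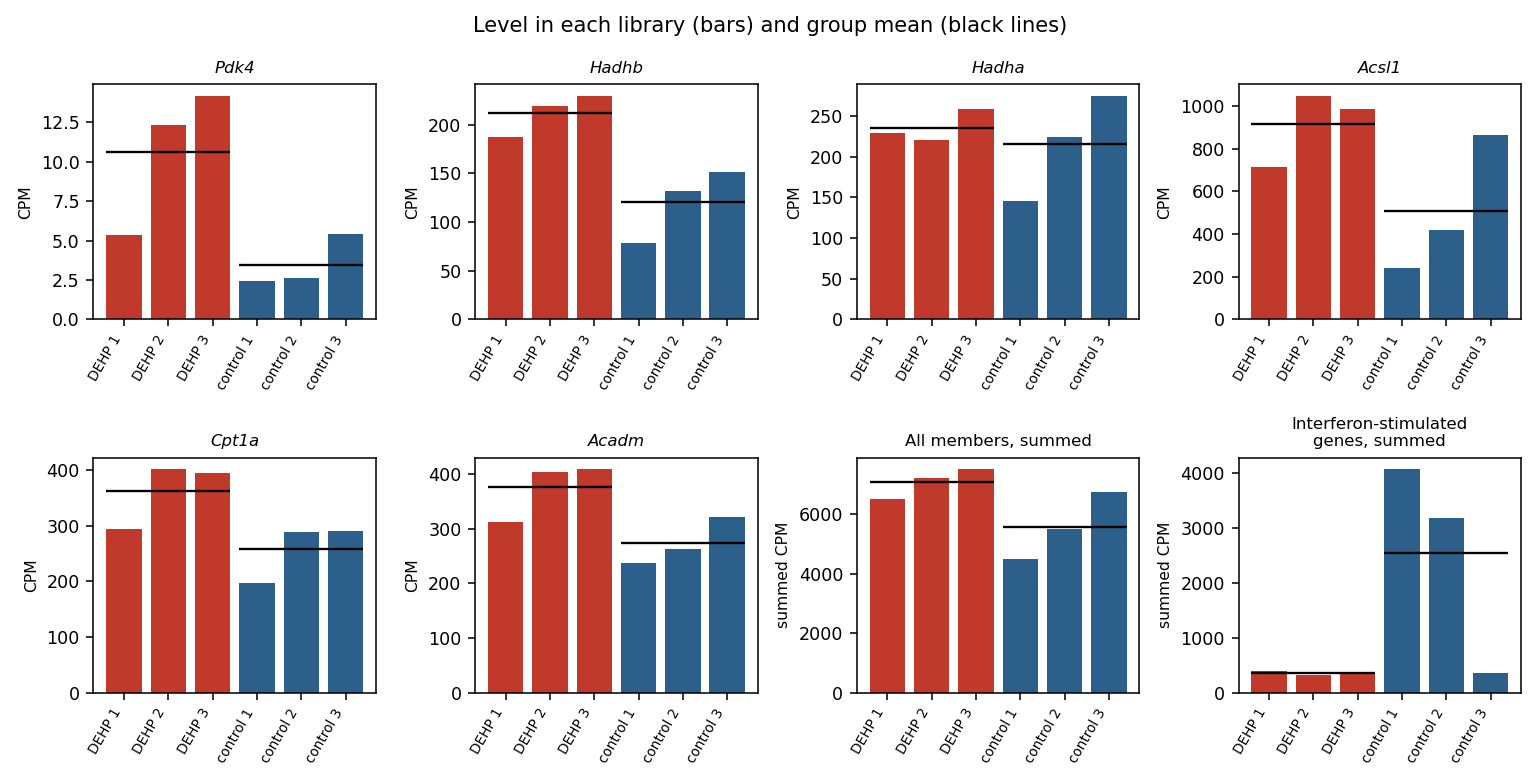
Level in each library in CPM (bars, with DEHP on the left) with group means as black lines, for 6 genes, for the sum of the members and for the sum of interferon-stimulated genes. Hadhb is lower in each control than in each DEHP library, while Hadha, Acsl1 and the member sum in control 3 reach the DEHP range. The sum of interferon-stimulated genes is high in control 1 and 2 alone.

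The acyl-CoA dehydrogenases, which take the first pair of electrons, are divided by chain length and branching. Acadm, the medium-chain enzyme, had 313, 405 and 410 CPM in DEHP livers, against 237, 262 and 323 CPM in control livers. Control replicate 3 lay just above DEHP replicate 1. The log2 fold change was 0.46 ± 0.20 (SE, edgeR unadjusted p = 0.0397, adjusted p = 0.367). Acadsb, which acts on short branched chains from isoleucine, had 117, 183 and 155 CPM in DEHP livers, against 95.6, 114 and 110 CPM in control livers. The groups do not overlap (log2 fold change 0.51 ± 0.20, edgeR unadjusted p = 0.0250, adjusted p = 0.329). For Acadl, the long-chain enzyme of the mouse, all DEHP libraries, at 261 to 287 CPM, lay above all controls, at 206 to 251 CPM (0.22 ± 0.18, edgeR adjusted p = 0.659). Acads, for short chains, had 0.18 ± 0.20, and Acadvl, for very long chains, had 0.06 ± 0.30. Acad8, the isobutyryl-CoA dehydrogenase of valine breakdown, had 62.1 ± 8.27 CPM in DEHP and 64.6 ± 5.96 CPM in control livers (SD, n = 3), a log2 fold change of -0.05 ± 0.19.

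Acad9, which also assembles respiratory complex I, had 26.0 ± 4.22 CPM in DEHP and 21.6 ± 2.51 CPM in control livers (SD, n = 3), a log2 fold change of 0.27 ± 0.21. Acad11, a member of the same family, had 0.29 ± 0.23. On the other strand, Ackr4 overlaps 69.2% of the Acad11 row and Dvl2 overlaps 40.5% of the Acadvl row, so both values are uncertain. For Acad10, 2 rows named by an identifier alone are described as this gene. The first had 70, 178 and 247 counts in DEHP livers, against 150, 77 and 140 in control livers (log2 fold change 0.59 ± 0.38, edgeR adjusted p = 0.555). The second had 57, 41 and 69 counts in DEHP livers, against 38, 19 and 38 in control livers (1.01 ± 0.43, edgeR adjusted p = 0.356). Between these rows lies an untested locus without a gene name that is also described as Acad10. It had 56, 67 and 113 counts in DEHP livers, against 105, 48 and 84 in control livers. These loci do not carry the symbol and were not counted as members.

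After the first dehydrogenation, Echs1, the short-chain enoyl-CoA hydratase, had 215, 329 and 318 CPM in DEHP livers, against 179, 223 and 209 CPM in control livers. DEHP replicate 1 lay within the control range. The log2 fold change was 0.50 ± 0.21 (SE, edgeR unadjusted p = 0.0324, adjusted p = 0.350). Hadh, the hydroxyacyl-CoA dehydrogenase for shorter chains, had 212, 230 and 321 CPM in DEHP livers, against 153, 193 and 228 CPM in control livers (0.41 ± 0.22). Acaa2 had 1300, 1268 and 1330 CPM in DEHP livers, against 853, 1080 and 1214 CPM in control livers (0.31 ± 0.20, edgeR adjusted p = 0.533). Its DEHP libraries were close together and all above the controls. Decr1 and Eci1, which deal with double bonds already in the chain, had 0.22 ± 0.19 and 0.16 ± 0.20, with overlapping groups.

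In electron transfer, the subunits of the electron transfer flavoprotein differed in sign. Etfa, the alpha subunit, had 339, 432 and 359 CPM in DEHP livers, against 277, 257 and 317 CPM in control livers. The groups do not overlap (log2 fold change 0.41 ± 0.19, edgeR unadjusted p = 0.0517, adjusted p = 0.386). Etfb, the beta subunit, had 157, 111 and 110 CPM in DEHP livers, against 200, 120 and 124 CPM in control livers. The groups overlap, and control replicate 1, the lowest library for most members, was here the highest. Its log2 fold change was -0.23 ± 0.24 (SE, edgeR adjusted p = 0.718), and 0.04 without control replicate 1. On the same strand, 99.7% of the Etfb row is covered by Gm45233, a row described as Etfb that has 0 counts in all libraries, so reads of Etfb may have been set aside and its value is uncertain. Etfdh, which passes the electrons to ubiquinone, had 148, 205 and 172 CPM in DEHP livers, against 82.9, 109 and 184 CPM in control livers. Control replicate 3 lay in the DEHP range (0.49 ± 0.27, edgeR adjusted p = 0.462), and Etfdh passed without that library (0.90 ± 0.23, edgeR adjusted p = 0.0496). With control replicate 1 dropped it was 0.26 (edgeR adjusted p = 0.824), and with control replicate 3 as the sole control -0.06.

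Pdk4 encodes a kinase that switches off pyruvate dehydrogenase, so that fat is burned in place of glucose, and it is induced in fasting. It had 5.37, 12.3 and 14.2 CPM in DEHP livers, against 2.41, 2.61 and 5.41 CPM in control livers. DEHP replicate 1 lay just below control replicate 3, and the groups otherwise separate. The counts behind these values were 53, 141 and 167 in DEHP and 34, 33 and 61 in control livers. Its log2 fold change, 1.62 ± 0.43, was the largest of the 28 (SE, edgeR unadjusted p = 0.00209, adjusted p = 0.172). It passed with DESeq2 (adjusted p = 0.0187), with edgeR and no low-count filter (0.00128), and with edgeR without control replicate 3 (0.0143). It did not pass in the other settings tried. It was 1.41 with control replicate 1 dropped (edgeR adjusted p = 0.564) and 0.99 with control replicate 3 as the sole control. The limit of the fit with no filter, given above for Hadhb, holds here too.

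The ketone body members showed no difference beyond their spread. Acat1, the thiolase that joins acetyl-CoA units, had 357 ± 66.1 CPM in DEHP and 357 ± 85.9 CPM in control livers (SD, n = 3). Its log2 fold change was -0.0023 ± 0.22 (SE, edgeR adjusted p = 0.997). Bdh1, which reduces acetoacetate to 3-hydroxybutyrate, had 238, 132 and 163 CPM in DEHP livers, against 108, 209 and 202 CPM in control livers (0.04 ± 0.28, edgeR adjusted p = 0.972). The rest of ketone body metabolism had 8 of 9 genes tested, 6 positive, with a median of 0.38 and 3 higher at an unadjusted p of 0.05 (6.11% of all genes were). The monocarboxylate carrier gene Slc16a7 had 0.72 ± 0.24 (edgeR adjusted p = 0.251).

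No gene of the neighbouring lists passed the adjusted threshold. Their counts at an unadjusted p of 0.05 are to be read against the 6.11% of all genes that passed as higher, and their positive genes against 47.1%. Peroxisomal beta-oxidation, which shortens very long chains, had 12 of 15 genes positive, a median of 0.40 and 5 higher at an unadjusted p of 0.05. Ehhadh, its bifunctional enzyme, had 306 ± 16.0 CPM in DEHP and 131 ± 53.8 CPM in control livers (SD, n = 3; 1.22 ± 0.25, edgeR adjusted p = 0.128). Other acyl-CoA synthetases had 10 of 12 positive and a median of 0.47, with 4 higher at an unadjusted p of 0.05. Slc27a1, a fatty acid transport protein, had the smallest p (1.02 ± 0.29, edgeR adjusted p = 0.200). Branched-chain, odd-chain and lysine steps, which share Acadsb and Acad8 with the members, had 12 of 13 positive and a median of 0.42, with 6 higher at an unadjusted p of 0.05. Hibch, a hydrolase of valine breakdown, had 46.0 ± 7.80 CPM in DEHP and 22.7 ± 6.01 CPM in control livers (SD, n = 3; 1.02 ± 0.23, edgeR adjusted p = 0.142).

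Of the malonyl-CoA and pyruvate dehydrogenase genes, 6 of 7 tested were positive, with a median of 0.50 and 4 higher at an unadjusted p of 0.05. Acacb, which makes the malonyl-CoA that inhibits Cpt1, had 29.4, 38.1 and 35.5 CPM in DEHP livers, against 22.0, 23.5 and 17.5 CPM in control livers, with no overlap (0.71 ± 0.21, edgeR adjusted p = 0.207). The regulators did not lean upward, with 7 of 15 positive and a median of -0.06. At an unadjusted p of 0.05, Prkaa2 passed as higher and Fgf21 as lower. Ppara, the receptor itself, had 27.8 ± 5.77 CPM in DEHP and 32.4 ± 3.64 CPM in control livers (SD, n = 3; -0.22 ± 0.21, edgeR adjusted p = 0.699). Prkaa2, a catalytic subunit of the energy sensor AMPK, had 0.68 ± 0.23 (edgeR adjusted p = 0.264). Fgf21, a fasting hormone of the liver and a known PPARalpha target, had 1.42, 0.174 and 1.44 CPM in DEHP livers, against 9.43, 2.21 and 2.39 CPM in control livers. Levels were low throughout, control replicate 1 was highest, and the groups do not overlap (-2.21 ± 0.76, edgeR adjusted p = 0.281).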

How the data were processed

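The authors deposited raw read counts by gene, with 1 column for each library. Per the labels' protocols, poly(A) RNA went through a strand-marking kit and paired-end sequencing. The submitters' processing notes name GRCm38.p6, while the table's gene identifiers are of the C57BL/6NJ annotation. No source used here gives the aligner, the counter or the use of strand. Loci without a gene name (2.73% to 4.28% of counts) stayed out of library sizes and tests.

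The test was edgeR's quasi-likelihood F test (edgeR 4.0.16, R 4.3.3) after filterByExpr (minimum count 10) and TMM scaling, as a robust fit of DEHP against control livers, no covariate, two-sided, Benjamini-Hochberg adjustment over 12468 genes, threshold 0.05. The SE comes from the F statistic. CPM use TMM-scaled totals of tested genes, and gene lengths are those of the table. Log2 CPM per library have a prior count of 2. Alternatives were RLE scaling, other filters, DESeq2 1.42.0, limma-voom (limma 3.58.1), a replicate block, a fit without the robust option, and each library left out. Leaving out control replicates 1 and 2, and keeping unnamed loci, were added after the data were seen. The fit was tested on simulated data. No library repeats another: within groups, chi-square over degrees of freedom was 31.1 or more. The members and lists were chosen with earlier results of these data known. All members are named, and from the neighbouring lists Ppara, Acacb and up to 3 genes with the smallest p of each. Some genes that this rule selects are not reported here. Promoters and motif shares use RefSeq on GRCm38.p6.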

Additional observations from a re-analysis of the deposited data

How the results depend on the processing

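Genes past an adjusted p of 0.05, 9 with all libraries, numbered 261 with DESeq2, 2 with limma-voom, 496 with no filter and 0 with control replicates 1 and 2 left out, and 5 to 400 with 1 library left out. Members past that threshold, 0 with all libraries (0.0722% of all genes), numbered 2 with DESeq2 (2.09%) and 3 with no filter (2.41%). With 1 library left out they numbered 0 to 4, against 0.0387% to 3.10% of all genes. Members past an unadjusted p of 0.05, 6 with all libraries (13.1% of all genes), numbered 10 with no filter (10.7%). With 1 library left out they numbered 2 to 12, against 7.41% to 16.0% of all genes. The fit with no filter carries the limit given above for Hadhb. RLE scaling, a mean of at least 1 CPM, a fit that is not robust and unnamed loci kept in gave 7 members each at the unadjusted threshold. Of all genes, 13.0% to 13.4% passed it in these fits. At the adjusted threshold they gave 0 members, against 0.0616% to 0.0741% of all genes. The median of the members stayed between 0.11 and 0.43 in the 15 alternatives. With control replicates 1 and 2 left out, which leaves 1 control library with no spread of its own, the step medians were -0.04 (activation and shuttle, against 0.22), 0.11 (beta-oxidation, against 0.27), 0.03 (electron transfer, against 0.41) and -0.26 (ketone bodies, against 0.02). The cause was not tested. Of 420 member fold changes recomputed, 9 passed the adjusted threshold and 30, over 12 members, turned sign, none of them past the threshold on either side. With the replicate number as a replicate block, 9 members passed the unadjusted threshold, where 13.6% of all genes did. At the adjusted threshold 0 members and 6 genes of all (0.0481%) passed, and the median of the members was 0.30. The titles name no shared animal, litter or batch. Deviations of same-numbered libraries correlated at -0.02, 0.06 and -0.03, and those of differently numbered libraries at -0.05 to 0.06. With 3 libraries a group, these values show no pairing by number but cannot exclude one. At this depth Cpt1b and Slc22a5, with 0 to 9 and 28 to 100 counts a library, cannot show small differences.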
